A study of Rattus norvegicus with 36 samples.

Results

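The rat lung 180 days (D180) after instillation of DQ-12, a crystalline silica dust, was described from 12 of the 36 arrays of the series. They were picked by their labels, 6 of them from DQ-12 rats and 6 from vehicle rats. The choice of D180, and the gene lists used below, were made with earlier results of these data known. All of these animals were female Sprague Dawley rats that were 13 weeks old at instillation. DQ-12 rats had received 10 mg of the dust per rat by endotracheal instillation, and vehicle rats saline without dust. RNA from the accessory lobe of each lung was labeled with Cy3 and hybridized to 1 Agilent single-color array per rat. The other 24 arrays hold the same comparison 1 day (D1) and 30 days (D30) after instillation, in other rats. The comparison at D180 asks which genes differ in the lung long after a single dose. Because whole-lobe RNA was measured on a relative scale, fewer cells of a type and less RNA per cell cannot be told apart. Nor can either be told apart from a smaller share of the lobe's RNA where other cells add more.

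Alveolar macrophages take up crystalline silica but cannot degrade it, and those that die release the particles to other macrophages, so that inflammation persists after exposure has ended. Persisting inflammation brings monocytes, neutrophils, and lymphocytes into the tissue. Silicosis, the disease that can follow, is known for nodules of macrophages with deposited collagen and for filling of the air spaces with surfactant material. Alveolar type 2 cells make that surfactant, and the flat alveolar type 1 cells form most of the surface for gas exchange.

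Values below are log2 signals after quantile normalization, and 23721 genes were tested with limma over all 36 arrays. Genes whose fold change (FC) reached 2 in either direction with a Benjamini–Hochberg adjusted p under 0.05 are called DEGs. The percentage of probes well above background was 56.55 to 75.52% in vehicle rats and 51.26 to 66.76% in DQ-12 rats, and no spot was saturated. Genes that define lung tissue were bright in both groups. Sftpb, a surfactant protein, lay between 17.07 and 17.38, and Scgb1a1, the club cell secretoglobin, between 15.96 and 16.91 in the 12 rats. The median correlation of an array with the others of its group was 0.964 to 0.983, the lowest in vehicle replicate 5. That library stood apart through skeletal muscle genes, as described near the end, and results that move by over 1.5 times without it are given both ways. The arrays were scanned on 6 dates and lay on 10 slides, of which 2 dates and 1 slide held both groups.

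At D180, 871 genes were DEGs, or 3.67% of those tested. Of these, 686 were higher in DQ-12 rats (2.89% of the genes tested) and 185 were lower (0.78%). The rises were larger than the falls, with a median log2 FC of 1.43 among the higher genes and -1.17 among the lower ones, against -0.03 over all genes. Only rises reached a log2 FC of 3, in 49 genes, whereas 2 falls, those of Wnt6 and LOC102549884, singled out after their values were seen, reached a log2 FC of -2. In 537 of the 871 DEGs the groups did not overlap. Over all genes tested, the 6 DQ-12 rats exceeded every vehicle rat in 3.88% and were exceeded by every vehicle rat in 3.49%. For 68 higher DEGs no vehicle array, and for 48 lower DEGs no DQ-12 array, gave a signal well above background. A bound ("at least") is given for such genes, namely the brighter group's mean over the dimmest signal still well above background on each array of the other group, or over the gene's own signal if that was higher. Between the 3 vehicle and 3 DQ-12 arrays of 1 scan date, 868 of the 871 DEGs kept their sign, with medians of 1.43 and -1.02. In the single pair of another date, 843 of 865 did so. The DEGs were called from these same arrays, so that most signs were bound to hold. Signs kept here, and with slide as a block below, are therefore no independent check. With a background correction that models the background around each spot (normexp), 327 genes were DEGs, of which 309 were higher. With slide as a block, a fit that rests on 1 array of each group on a shared slide, 466 genes were DEGs, 251 of them higher, and 183 of the 871 remained, although 844 kept their sign.

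**Figure D1:**
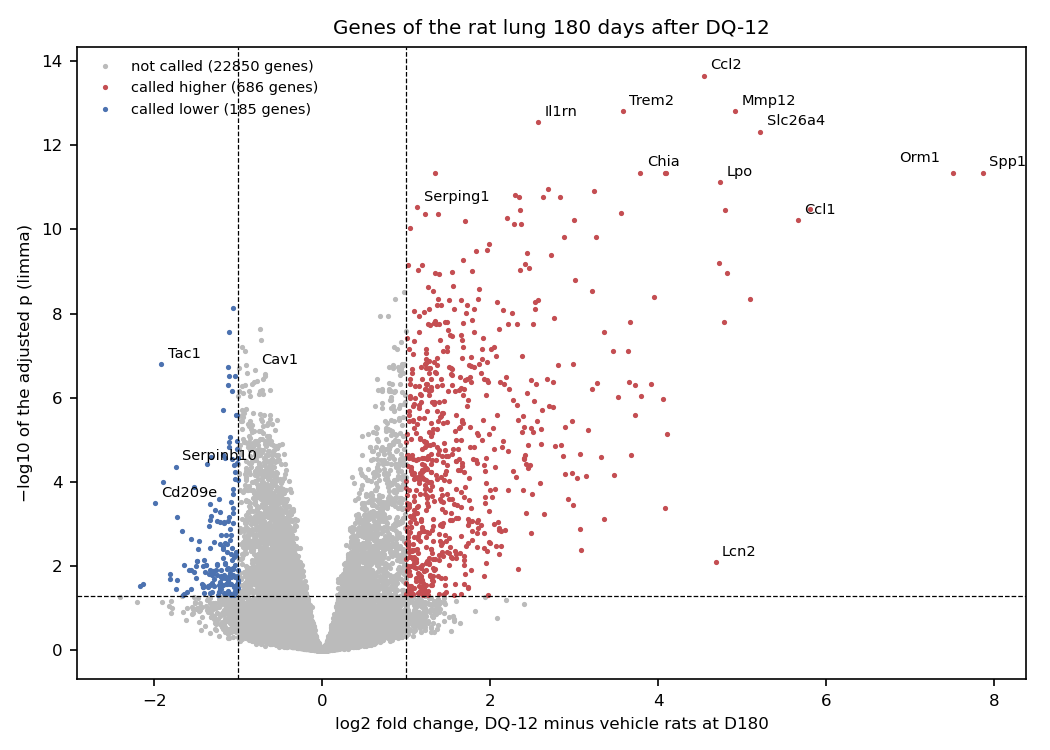
Volcano plot of the 23721 genes at D180: log2 fold change of DQ-12 over vehicle rats on the x axis and -log10 of the adjusted p (limma) on the y axis. Red points are the 686 higher DEGs and blue points the 185 lower ones, dashed lines mark the 2-fold and adjusted p thresholds, and the points farthest from 0 are on the side of the rises.

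Among genes that have a name rather than a locus number and were above background in some rats of both groups, the largest rises were those of Spp1, which encodes the secreted phosphoprotein osteopontin, Orm1, which encodes the acute-phase plasma protein orosomucoid, Slc26a4, which encodes the anion exchanger pendrin, and Mmp12, which encodes macrophage elastase. The 60-base probes that measured them are printed whole, 5′ to 3′ and in lower case, to show which stretch of each transcript the largest values rest on.
Spp1: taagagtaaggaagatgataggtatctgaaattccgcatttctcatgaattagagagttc
Orm1: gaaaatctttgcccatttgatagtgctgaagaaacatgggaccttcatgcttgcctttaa
Slc26a4: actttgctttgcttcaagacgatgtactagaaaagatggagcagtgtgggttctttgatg
Mmp12: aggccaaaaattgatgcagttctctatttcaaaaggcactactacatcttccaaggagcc

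The Spp1 signal was 4.20 to 6.86 (median 4.66) in the vehicle group against 12 to 13.93 (median 13.03) in DQ-12 rats. Every DQ-12 rat thus lay more than 5 log2 units above the highest vehicle rat, and the log2 FC was 7.87 (SE 0.55, adjusted p = 4.46e-12). Orm1 was well above background in 2 of 6 vehicle rats, with signals of 2.45 to 6.54 (median 3.93), against 9.73 to 12.65 (median 12.01) in DQ-12 rats. The groups were again far apart, with a log2 FC of 7.51 (SE 0.53, adjusted p = 4.46e-12). Slc26a4 lay between 4.11 and 6.19 (median 5.44) in the vehicle group against between 9.88 and 11.67 (median 10.28) in DQ-12 rats, a log2 FC of 5.22 (SE 0.33, adjusted p = 4.77e-13). Mmp12 went from 6.26 to 7.11 (median 6.43) to 10.78 to 12.33 (median 11.41), a log2 FC of 4.91 (SE 0.29, adjusted p = 1.53e-13). None of these 4 genes showed overlap between the groups, and all 4 remained DEGs under every alternative run.

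Some genes were measured in all 6 DQ-12 rats but in none of the vehicle rats. Ccl1, a ligand of the chemokine receptor Ccr8, was at least 26.1-fold higher in DQ-12 rats (6.87 to 9.94, median 8.07) than in vehicle rats (2.14 to 3.74, median 2.42). Mmp7, the epithelial protease matrilysin, was at least 20.9-fold higher (7.01 to 9.75 against 2.33 to 4.31). The sodium channel gene Scn10a, best known from sensory neurons, was at least 7.65-fold higher (5.58 to 8.38 against 2.29 to 3.98). These ranges were separate in each case. The bounds for Gsg1, Mab21l3, and Upk3bl1 were 25.9-fold, 9.05-fold, and 8.35-fold, and for Upk3bl1 1 DQ-12 rat fell within the vehicle range. Scn10a, Mab21l3, and Upk3bl1 were not DEGs with slide as a block. All bounds given here hold for the main normalization only. With normexp, which adds an offset to every signal, the log2 FCs were 2.39 for Ccl1, 2.23 for Mmp7, 2.45 for Gsg1, 1.26 for Scn10a, 1.38 for Mab21l3, and 1.26 for Upk3bl1, and thus under these bounds.

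**Figure D2:**
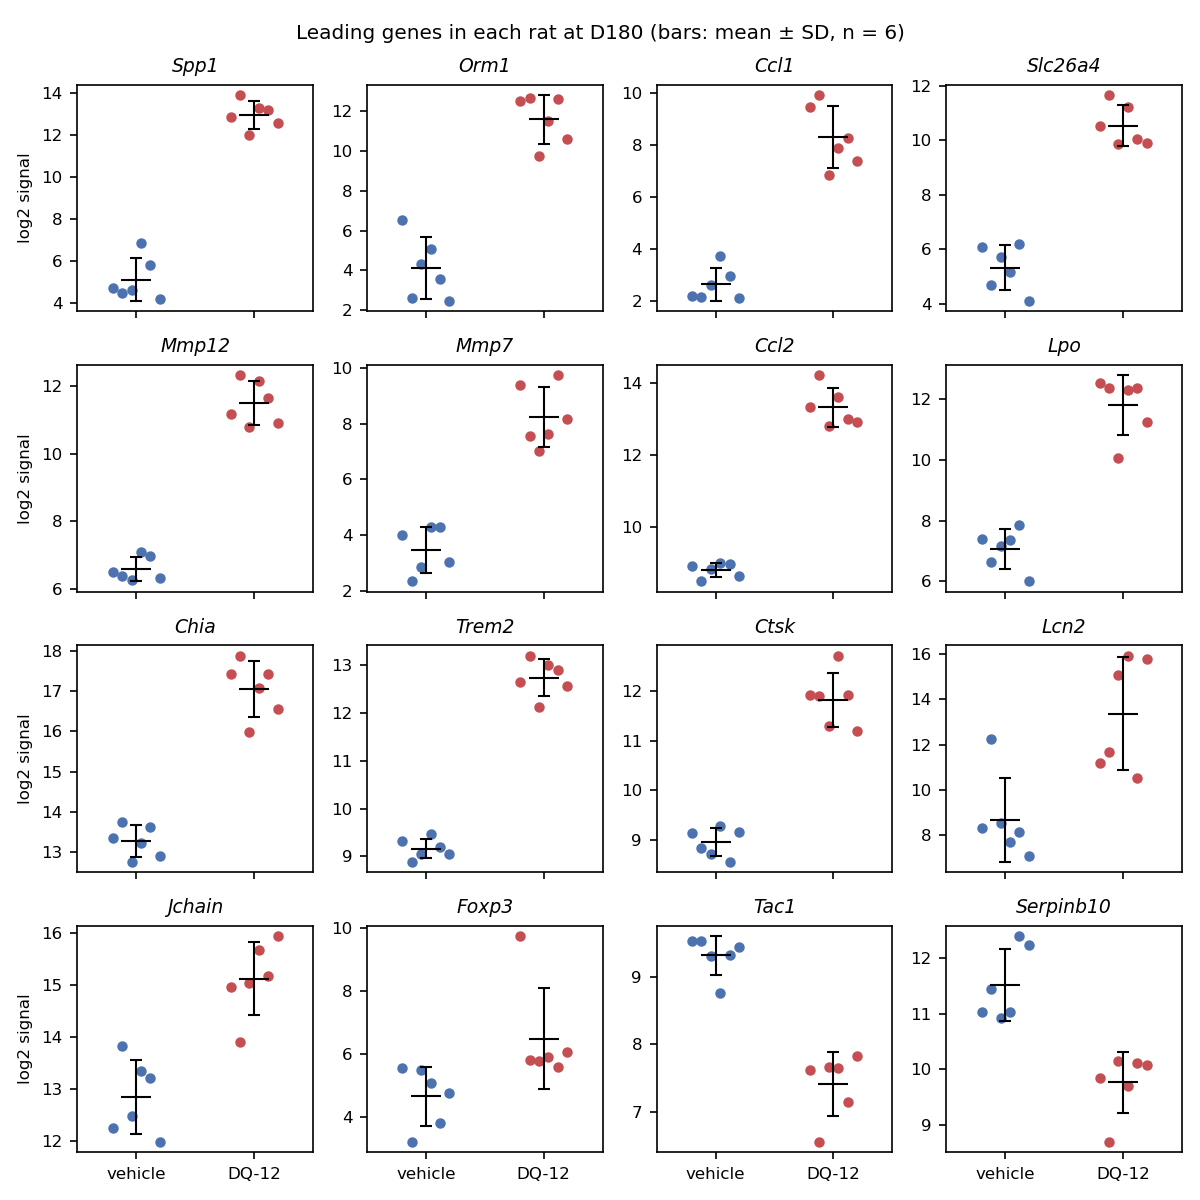
Log2 signal of 16 genes in each rat at D180, with vehicle rats in blue, DQ-12 rats in red, and bars for the mean ± SD of 6 rats. In 15 panels the red and blue points do not overlap, in the Lcn2 panel the vehicle rat at 12.26 lies among DQ-12 rats, and 1 DQ-12 rat at 9.75 stands apart in the Foxp3 panel.

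Genes of lipid-laden and osteoclast-like macrophages, which carry lysosomal and bone-resorbing enzymes, were higher in DQ-12 rats in most cases. Of 22 members, 13 were higher DEGs, none was lower, and 9 were neither. Their median log2 FC was 1.38. The mean of the list in a rat, counted from the vehicle average, was -0.17 to 0.15 in vehicle rats and 1.57 to 2.10 in DQ-12 rats, so that the groups were widely separated. Trem2, a lipid-sensing receptor of macrophages, was 8.89 to 9.46 (median 9.13) in the vehicle group against 12.13 to 13.21 (median 12.78) in DQ-12 rats. Its log2 FC was 3.58 (SE 0.21, adjusted p = 1.53e-13), and the groups were far apart. Ctsk, the collagen-degrading cathepsin of osteoclasts, was 8.55 to 9.27 (median 8.98) and 11.2 to 12.72 (median 11.92), respectively, a log2 FC of 2.88 (adjusted p = 1.47e-10). Atp6v0d2, a proton pump subunit of osteoclasts, rose by 2.42, the lipid carrier Fabp4 by 2.53, the lysosomal glycoprotein gene Gpnmb by 2.36, and Pla2g7, a phospholipase that cleaves oxidized lipids, by 2.36 on the log2 scale. Not all members rose: the lipoprotein lipase gene Lpl had a log2 FC of 0.07 (adjusted p = 0.839) and the fatty acid receptor gene Cd36 0.04 (adjusted p = 0.871). Cd9 was lower by the adjusted p alone, at -0.59 (adjusted p = 0.00304).

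Genes of resident macrophages went both ways. Of 16, 3 were higher DEGs and none was lower, with a median log2 FC of 0.20, and by the adjusted p alone 6 were higher and 4 lower. Siglec1, a sialic acid receptor, was 7.61 to 8.92 (median 8.48) in the vehicle group against 9.47 to 11.17 (median 10.37) in DQ-12 rats, a log2 FC of 1.96 (adjusted p = 3.76e-07). The folate receptor gene Folr2 rose by 1.40 on the log2 scale (adjusted p = 4.27e-08) without overlap. Cd5l, a scavenger receptor-like protein secreted by macrophages, had vehicle values of 2.69 to 6.87 (median 3.08), and only 2 DQ-12 rats exceeded vehicle replicate 5, which was the highest of its group. Its log2 FC was 2.64 (adjusted p = 0.00059), or 3.29 without that rat, and it was not a DEG with normexp or slide as a block. On the other side, the hemoglobin receptor gene Cd163 was 6.28 to 7.25 in vehicle rats and 5.40 to 6.19 in DQ-12 rats (log2 FC -0.89, adjusted p = 0.0019), and Siglec5 7.91 to 8.46 and 6.82 to 7.47 (log2 FC -0.91, adjusted p = 4.63e-05). All 6 DQ-12 rats lay below all vehicle rats for both, short of a 2-fold change.

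Among 23 receptors for particles, immune complexes, and microbial sugars, 6 were higher DEGs and 1 was lower, with a median log2 FC of 0.68. Fcgr2b, the inhibitory receptor for immunoglobulin G, was 9.49 to 10.43 (median 9.69) in the vehicle group against 11.74 to 12.65 (median 11.90) in DQ-12 rats, a log2 FC of 2.26 (adjusted p = 9.89e-09). Marco, a scavenger receptor that binds mineral particles, was well above background in 2 vehicle rats and rose from 2.81 to 5.14 (median 3.87) to 6.15 to 6.78 (median 6.53). The DQ-12 values of Marco were tight and all above the vehicle range, with a log2 FC of 2.62 (adjusted p = 1.91e-06). The lectin Clec4e, which senses dead cells and mycobacteria, was at least 3.08-fold higher and well above background in 5 DQ-12 rats and no vehicle rat. The other class A scavenger receptor gene, Msr1, rose by 1.52 on the log2 scale (adjusted p = 3.23e-08). Cd209e, a lectin of the DC-SIGN family, went the other way and was at least 2.68-fold lower. Marco, Clec4e, and Cd209e were not DEGs with normexp, and none of these 3 or Fcgr2b with slide as a block.

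Chemokines are the secreted proteins that direct leukocytes. Of 26 CC and CXC chemokine genes, 14 were higher DEGs and none was lower, and the median log2 FC was 1.19. The mean of the list lay between -0.25 and 0.15 in vehicle rats and between 1.25 and 2.15 in DQ-12 rats. Ccl2, Ccl7, and Ccl12 act on the receptor Ccr2 and attract monocytes. Ccl2 was 8.47 to 8.98 (median 8.85) in the vehicle group against 12.82 to 14.23 (median 13.18) in DQ-12 rats, a log2 FC of 4.54 (SE 0.24) with the lowest adjusted p of all genes (2.23e-14). For Ccl7 the ranges were 6.15 to 7.52 and 10.51 to 12.95 (log2 FC 4.80, adjusted p = 3.45e-11), and for Ccl12 5.13 to 6.50 and 8.70 to 11.05 (log2 FC 3.63, adjusted p = 7.91e-08). These 3 genes did not overlap between groups. Ccl17 and Ccl22, ligands of Ccr4 on T cells, rose by 2.76 and 1.76 on the log2 scale. The interferon-inducible T cell attractants Cxcl10 and Cxcl11 both rose by 2.98, and Cxcl10 varied from 8.17 to 11.17 among DQ-12 rats. The neutrophil attractant Cxcl2 rose by 1.99 and Cxcl6, the symbol under which the array lists Cxcl5, by 3.47, with 5 of 6 DQ-12 rats above the vehicle range. Cxcl6 was well above background in 1 vehicle rat and Cxcl11 in 2. Ccl12 was not a DEG with slide as a block. By contrast, Cxcl14, made by epithelium and fibroblasts, had a log2 FC of -0.72 (adjusted p = 0.0019) and was lower in all 6 DQ-12 rats.

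Cytokine and inflammasome genes rose in part, 10 of 32, with none lower and a median log2 FC of 0.50 (0.43 with dim genes at their bound). Il1rn, which encodes the receptor antagonist that blocks interleukin 1, was 10.41 to 11.14 (median 10.96) in the vehicle group against 13.16 to 13.92 (median 13.36) in DQ-12 rats. Its log2 FC was 2.57 (SE 0.16, adjusted p = 2.81e-13). The gene of the decoy receptor for interleukin 1, Il1r2, rose by 2.32 (adjusted p = 1.80e-08). The agonist gene Il1b rose by 1.17 (adjusted p = 7.36e-05), whereas Il1a had a log2 FC of -0.26 (adjusted p = 0.397). The range of Il1b was 11.09 to 11.86 in vehicle rats and 12.03 to 13.28 in DQ-12 rats. Il24, a cytokine of the interleukin 10 family, rose by 2.50 (2.45 to 4.96 and 5.04 to 7.999, adjusted p = 0.000196), and Il12b, the subunit shared by interleukins 12 and 23, by 2.16 (2.90 to 5.13 and 5.46 to 6.46, adjusted p = 1.04e-05). Both were dim in vehicle rats and were not DEGs with normexp or with slide as a block, nor was Il1r2 with the latter. Osm, Tnf, Nlrc4, Il18bp, and the macrophage growth factor gene Csf1 rose by 1.16 to 1.77. The inflammasome sensor gene Nlrp3 stayed under 2-fold (log2 FC 0.76, adjusted p = 6.18e-05), and Il6 was not well above background on any of the 12 arrays.

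Neutrophil genes were higher in part. Of 22, 9 were higher DEGs and none was lower, with a median log2 FC of 0.59, and the list mean was 0.94 to 1.26 in DQ-12 rats against -0.26 to 0.26 in vehicle rats. S100a9, a calcium-binding protein of mature neutrophils and monocytes, was 12.39 to 13.25 (median 12.69) in the vehicle group against 15.17 to 15.66 (median 15.29) in DQ-12 rats, a log2 FC of 2.57 (adjusted p = 4.81e-09). Cd177, a surface protein of neutrophils, was 8.95 to 10.39 (median 10.18) and 12.31 to 13.04 (median 12.75), a log2 FC of 2.83 (adjusted p = 1.68e-11). The chemokine receptor gene Cxcr2 and the receptor gene Trem1 rose by 1.55 and 1.5. Lcn2, which encodes an iron-sequestering protein, had the largest FC of the list but overlapped. Its signal was 7.07 to 12.26 (median 8.23) in the vehicle group against 10.51 to 15.92 (median 13.36) in DQ-12 rats, with vehicle replicate 2 above 3 of the DQ-12 rats. The log2 FC was 4.69 (SE 1.27, adjusted p = 0.00793), 4.45 within 1 scan date and -1.75 in the pair of the other, and it was not a DEG with scan date or slide as a block. S100a9 was not a DEG with slide as a block either. Among other granule protein genes, Camp had a log2 FC of 0.35 (adjusted p = 0.351), Mpo was well above background in 2 rats of each group, and Elane in none.

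Acute-phase proteins are plasma proteins, made chiefly by the liver, that change with inflammation. In the lung at D180, 13 of 24 such genes were higher DEGs, none was lower, and the median log2 FC was 1.20. The list mean was -0.14 to 0.19 in vehicle rats and 1.23 to 1.81 in DQ-12 rats. Besides Orm1 and Lcn2, Saal1 went from 9.10 to 10.54 (median 9.70) to 11.55 to 13.92 (median 13.37), a log2 FC of 3.36 (adjusted p = 2.80e-08). Saal1 bears the name serum amyloid A-like 1 and is counted among the 13, but is not an established plasma protein. The inter-alpha-trypsin inhibitor genes Itih1 and Itih3, whose proteins bind hyaluronan, rose by 3.68 and 2.15, Itih1 being well above background in 1 vehicle rat. The heme and hemoglobin carriers Hpx and Hp rose by 1.87 and 1.5 (5.24 to 6.07 and 7.32 to 7.74 for Hpx). Crp, a classical liver reactant, did not pass (log2 FC 0.31, adjusted p = 0.652), and Apcs and Fgb were not well above background in any rat of either group. Itih1 and Hpx were not DEGs with slide as a block.

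Many acute-phase genes carry binding sites for STAT and C/EBP proteins, transcription factors that act downstream of interleukin 6. The promoter windows (RefSeq, GRCr8) begin 250 bases before the gene start and were searched over their whole length on both strands. The STAT motif was TTCNNNGAA and the C/EBP-like motif TTNNGNAA, and their matches can overlap each other. Only the 250 bases before the start are printed below. Of the 13 higher genes, 10 were in the table of promoters, as were 10 of the 11 others. The STAT motif was in 1 of the 10 higher genes, 4 of the 10 others, and 8.87% of all 33469 promoters. The C/EBP-like motif was in 8 of 10, 7 of 10, and 41.3%, respectively. The promoters below are printed because they belong to the gene that rose most and to the only higher gene with the STAT motif, with matched letters in capitals. The Orm1 promoter (chr5:81788259-81788508, plus strand) holds C/EBP-like matches that begin 123 and 111 bases before the start. The Serpina3n promoter (chr6:129088142-129088391, plus strand) holds the STAT match 123 bases and C/EBP-like matches 218 and 56 bases before it.
Orm1: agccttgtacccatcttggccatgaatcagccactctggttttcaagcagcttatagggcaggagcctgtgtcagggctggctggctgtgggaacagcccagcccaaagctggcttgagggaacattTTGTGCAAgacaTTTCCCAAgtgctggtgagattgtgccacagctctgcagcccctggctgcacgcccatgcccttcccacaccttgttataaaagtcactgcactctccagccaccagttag
Serpina3n: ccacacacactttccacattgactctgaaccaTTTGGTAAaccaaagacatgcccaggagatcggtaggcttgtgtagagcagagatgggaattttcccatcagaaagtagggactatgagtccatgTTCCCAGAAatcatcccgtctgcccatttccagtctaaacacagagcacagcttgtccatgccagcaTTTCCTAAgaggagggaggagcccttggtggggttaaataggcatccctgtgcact

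Serpina3n, a serine protease inhibitor, was 5.52 to 6.61 (median 6.32) in the vehicle group against 6.46 to 8.29 (median 7.45) in DQ-12 rats. Its log2 FC was 1.32 (adjusted p = 0.00247), with 1 DQ-12 rat inside the vehicle range. The motifs describe letters in these windows and were not tested for binding.

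Complement, the cascade of plasma proteases that tags particles and cells, was higher at several of its steps, with 11 of 32 genes higher, none lower, and a median log2 FC of 0.65. Cfb, the protease of the alternative pathway, was 13.32 to 13.64 (median 13.61) in the vehicle group against 14.36 to 15.70 (median 15.04) in DQ-12 rats, a log2 FC of 1.48 (adjusted p = 1.54e-08). C1s and C2, proteases of the classical pathway, rose by 1.37 and 1.21. The terminal component gene C9 was 6.86 to 7.41 and 7.59 to 10.10 (log2 FC 1.40, adjusted p = 0.00107), without overlap. The inhibitor gene Serping1, which blocks the first proteases, was 14.07 to 14.31 (median 14.13) in the vehicle group against 15.06 to 15.55 (median 15.23) in DQ-12 rats, and its log2 FC of 1.13 had an SE of 0.09. The gene of another regulator, Cd59, had a log2 FC of 0.08 (adjusted p = 0.764). Coagulation genes went both ways, with 4 of 28 higher DEGs, none lower, and 5 higher and 5 lower by the adjusted p alone. Their median log2 FC was 0.03, or 0.12 without vehicle replicate 5. Among them were Cpb2, a carboxypeptidase that slows fibrinolysis (log2 FC 2.28, adjusted p = 5.53e-05), the protease inhibitor gene Serpine2 (1.44, adjusted p = 0.000937), and the urokinase receptor gene Plaur (1.04, adjusted p = 0.000384). The count fell to 2 without vehicle replicate 1 or without DQ-12 replicate 2, and Plaur missed 2-fold without either of them (log2 FC 0.96 and 0.94). C9, Cpb2, Serpine2, and Plaur were not DEGs with slide as a block, nor Cpb2 and Plaur with normexp.

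Interferon-stimulated genes rose in 8 of 29 cases, with none lower and a median log2 FC of 0.585. The DQ-12 rats differed among themselves, since the list mean was 0.10 to 1.12 against -0.21 to 0.24 in vehicle rats, and the ranges overlapped. Ifit3, an antiviral protein, was 7.91 to 9.35 (median 8.36) in the vehicle group against 9.20 to 11.51 (median 10.19) in DQ-12 rats (log2 FC 1.66, adjusted p = 0.000173). The guanylate-binding protein gene Gbp2 was 12.1 to 12.53 and 12.5 to 14.57 (log2 FC 1.30, adjusted p = 3.75e-05), and 5 of 6 DQ-12 rats exceeded all vehicle rats. Usp18, which dampens interferon signaling, was higher in all 6 (log2 FC 1.47). Without DQ-12 replicate 2, 5 of the 29 were DEGs, and with slide as a block Ifit3 and Usp18 were not. Ubd, a ubiquitin-like protein induced by interferon gamma and tumor necrosis factor, was 8.98 to 10.48 (median 9.81) in the vehicle group against 11.62 to 13.79 (median 13.38) in DQ-12 rats, a log2 FC of 3.21 (adjusted p = 2.97e-09).

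Antigen presentation genes were shifted upward as a set of small changes. Of 24, 4 were higher DEGs, none was lower, and the median log2 FC was 0.58. Another 12 had an adjusted p under 0.05 without reaching 2-fold, so that 16 in all were higher by the adjusted p alone, which 7.94% of all genes were. Nlrc5, the activator of MHC class I genes, was 10.88 to 11.67 (median 11.32) in the vehicle group against 11.79 to 13.11 (median 12.61) in DQ-12 rats (log2 FC 1.14, adjusted p = 2.92e-05). Tap1, the peptide transporter of the same pathway, had a log2 FC of 1.09 (adjusted p = 0.00421), and the class II loading gene RT1-DMa 1.02 (adjusted p = 2.24e-05), but both are near the 2-fold threshold and fell under it without single rats and with normexp. RT1-DMa was also not a DEG with slide as a block. The invariant chain gene Cd74 had a log2 FC of 0.58 (adjusted p = 0.000524) and was higher in all 6 DQ-12 rats. The list count was 2 without vehicle replicate 2 or DQ-12 replicate 6.

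In the T cell list, 4 of 27 genes were higher DEGs, none was lower, 23 had a log2 FC above 0, and the median was 0.32. Icos, a costimulatory receptor of activated T cells, was 7.74 to 8.09 (median 7.99) in the vehicle group against 8.94 to 9.51 (median 9.36) in DQ-12 rats, a log2 FC of 1.39 (adjusted p = 1.80e-08). Il2ra, the high-affinity interleukin 2 receptor, was 6.01 to 6.73 and 7.49 to 8.03 (log2 FC 1.36, adjusted p = 2.02e-06). Foxp3, the transcription factor of regulatory T cells, rose by 1.84 (adjusted p = 0.00353), but the vehicle range ended at 5.55, the lowest DQ-12 rat was at 5.58, and DQ-12 replicate 1 stood at 9.75. Foxp3 was not a DEG with normexp, with its probes summarized by their median, or with the 12 arrays of D180 alone. The cytokine gene Il17a was at least 1.72-fold higher, measured in 3 DQ-12 rats and no vehicle rat. Il2ra and Il17a were not DEGs with normexp or slide as a block. The T cell receptor genes Cd3e (log2 FC 0.22, adjusted p = 0.562) and Cd8a (0.06, adjusted p = 0.883) did not pass. In the list of natural killer and cytotoxic cells, only the cystatin gene Cst7 was a DEG (log2 FC 1.18) of 16, and the median was 0.08. Cst7 was not a DEG with normexp.

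In the B and plasma cell list, 5 of 24 were higher DEGs, none was lower, and the median log2 FC was 0.17. All 5 are genes of antibody-secreting cells: Jchain, Tnfrsf17, Mzb1, Irf4, and Derl3. Prdm1, Xbp1, and Sdc1, further genes of such cells in the list, were tested and were not DEGs. Jchain, which joins immunoglobulin units, was 11.98 to 13.82 (median 12.85) in the vehicle group against 13.91 to 15.94 (median 15.10) in DQ-12 rats. The ranges nearly met, and the log2 FC was 2.27 (SE 0.30, adjusted p = 1.14e-06). Mzb1, a chaperone of antibody secretion, was 5.77 to 7.03 (median 6.54) and 7.81 to 9.03 (median 8.39), a log2 FC of 2.05 (adjusted p = 6.05e-08). Pan-B cell genes did not pass, with log2 FCs of 0.19 for Ms4a1 and 0.02 for Cd79a (adjusted p = 0.594 and 0.965). Jchain, Tnfrsf17, Mzb1, and Irf4 were not DEGs with slide as a block, nor Tnfrsf17 with scan date as one. Of 17 lymphoid chemokine and lymphotoxin genes, 2 were higher DEGs, and the median log2 FC was 0.10, or 0.29 without vehicle replicate 5. The 2 were Ccl19, which guides T cells and dendritic cells (10.16 to 10.52 and 10.3 to 12.07, log2 FC 1.21), and Tnfrsf11a, the receptor RANK (4.58 to 5.25 and 5.47 to 6.54, log2 FC 1.06). The count was 1 without vehicle replicate 1 or 3 or without DQ-12 replicate 2, because Tnfrsf11a then missed 2-fold, and it was not a DEG with normexp. Neither gene was one with slide as a block.

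Mast cell genes had a median log2 FC of 0.76, with 2 of 13 higher DEGs and none lower. Tpsab1, a tryptase stored in mast cell granules, was 7.62 to 9.19 (median 8.20) in the vehicle group against 8.18 to 10.37 (median 10.11) in DQ-12 rats, where replicate 3 stood below the other 5 (log2 FC 1.57, adjusted p = 0.000335). The chymase gene Cma1 had a log2 FC of 1.28 (adjusted p = 0.0165) with 2 DQ-12 rats above the vehicle range, and it missed the threshold without vehicle replicate 2 or 3 (log2 FC 1.05 and 1.09). Tpsab1 and Cma1 were not DEGs with slide as a block, nor Cma1 with scan date as one. Kit, the stem cell factor receptor of mast cells and of some endothelial cells, was lower in all 6 DQ-12 rats (log2 FC -0.69, adjusted p = 0.000617).

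Most cell cycle genes were higher in DQ-12 rats. Of 26, 18 were higher, none was lower, all had a log2 FC above 0, and the median was 1.35. The list mean was -0.35 to 0.14 in vehicle rats and 1.11 to 1.55 in DQ-12 rats. Ccne1, the cyclin that drives entry into S phase, was 4.88 to 5.93 (median 5.44) in the vehicle group against 7.53 to 8.12 (median 7.76) in DQ-12 rats, a log2 FC of 2.36 (adjusted p = 9.12e-10). Top2a, a topoisomerase of dividing cells, was 5.97 to 6.61 (median 6.15) and 7.42 to 7.996 (median 7.70), a log2 FC of 1.51 (adjusted p = 4.69e-09). Mki67, the proliferation marker Ki-67, was 8.62 to 9.46 and 10.04 to 10.34 (log2 FC 1.22, adjusted p = 1.57e-07). The DQ-12 values of all 3 lay above the vehicle values with little spread. Genes of the p53 and senescence list had a median of 0.04, and 3 of 21 were higher DEGs, none lower. They included Cdkn2a, the tumor suppressor and senescence marker (4.58 to 6.04 and 6.16 to 7.50, log2 FC 1.41, adjusted p = 0.000276) and the stress cytokine gene Gdf15 (log2 FC 1.32, adjusted p = 0.0173). Gdf15 missed the threshold without vehicle replicate 3 or DQ-12 replicate 4 (log2 FC 1.15 and 1.18). Cdkn2a and Gdf15 were not DEGs with slide as a block, nor Cdkn2a with normexp. The p53 target Cdkn1a had a log2 FC of 0.29 (adjusted p = 0.256).

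Of 24 antioxidant genes, many of them targets of the transcription factor NRF2, 5 were higher DEGs and none was lower, and the median log2 FC was 0.20, or 0.31 without vehicle replicate 5. Slc7a11, which imports cystine for glutathione, was 4.26 to 5.91 (median 4.89) in the vehicle group against 7.82 to 8.98 (median 8.31) in DQ-12 rats, a log2 FC of 3.25 (adjusted p = 1.48e-10). Srxn1, which repairs oxidized peroxiredoxins, rose by 1.74, the heme oxygenase gene Hmox1 by 1.55, the metallothionein gene Mt2A by 1.09, and mitochondrial Sod2 by 1.07. Mt2A missed 2-fold without vehicle replicate 2 or DQ-12 replicate 5. The NRF2 target Nqo1 did not pass (log2 FC 0.28, adjusted p = 0.159), and Gclm was not well above background in any rat. Mt3, another metallothionein, was 4.31 to 4.94 (median 4.88) in the vehicle group against 7.23 to 8.77 (median 8.05) in DQ-12 rats, a log2 FC of 3.23 (adjusted p = 1.20e-11). Among 21 genes of the phagocyte NADPH oxidase and of nitric oxide metabolism, 7 were higher DEGs and none was lower (median 0.38). Ncf1, Ncf4, and Cyba, oxidase subunits, rose by 1.29, 1.01, and 1.09. Noxo1, counted in this list, rose by 1.65, though its protein serves an oxidase of epithelium rather than that of phagocytes. Arg1, which consumes arginine, rose by 1.30 without overlap (9.42 to 10.15 and 10.82 to 11.65). Hmox1, Mt2A, Ncf1, Noxo1, and Arg1 were not DEGs with slide as a block. The catalytic subunit gene Cybb had a log2 FC of 0.78 (adjusted p = 0.000418).

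Of 24 iron handling genes, 7 were higher DEGs and none was lower, with a median log2 FC of 0.26 (0.21 with dim genes at their bound). Slc11a1, which pumps iron and manganese out of phagosomes, was 8.03 to 8.97 (median 8.13) in the vehicle group against 9.41 to 10.71 (median 9.93) in DQ-12 rats (log2 FC 1.59, adjusted p = 3.22e-05). The transferrin gene Tf rose by 1.17, and Steap3, a ferrireductase, was at least 2.05-fold higher. Cd163 and the ferroxidase gene Heph were lower in all 6 DQ-12 rats (log2 FC -0.89 and -0.68), short of 2-fold. Lysosome and lipid efflux genes gave 4 higher DEGs of 30, none lower, and a median of 0.55. By the adjusted p alone 18 of the 30 were higher. Npc2, which moves cholesterol out of lysosomes, was 13.18 to 13.62 (median 13.32) in the vehicle group against 13.88 to 14.88 (median 14.33) in DQ-12 rats (log2 FC 1.05, adjusted p = 4.81e-07). Soat1, which esterifies cholesterol for storage, rose by 1.12, and the proton pump gene Atp6v1b2 by 1.18, both without overlap, whereas the efflux genes Abca1 and Abcg1 had log2 FCs of 0.02 and 0.15 (adjusted p = 0.954 and 0.477). The list count was 2 without DQ-12 replicate 4. Of 26 cholesterol and fatty acid synthesis genes, 1 was a DEG, Cyp51 (10.26 to 10.99 and 11.46 to 12.47, log2 FC 1.27), but 13 were higher by the adjusted p alone and the median was 0.52. That count was 2 or 3 without vehicle replicate 3 or 4 or DQ-12 replicate 3 or 6. Slc11a1, Steap3, Npc2, Soat1, Atp6v1b2, and Cyp51 were not DEGs with slide as a block, nor Steap3 and Soat1 with normexp or Npc2 with scan date as a block.

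Airway secretory genes rose in part. Of 28, 8 were higher DEGs, none was lower, and the median log2 FC was 0.23 (0.05 with dim genes at their bound). Chia, the acidic chitinase, was 12.77 to 13.76 (median 13.29) in the vehicle group against 15.98 to 17.88 (median 17.26) in DQ-12 rats, a log2 FC of 3.79 (SE 0.27, adjusted p = 4.46e-12). Bpifb1, a bactericidal protein of the airway lining, was 9.25 to 10.03 (median 9.46) and 10.83 to 13.86 (median 12.24), a log2 FC of 2.80 (adjusted p = 1.67e-07). The chitinase-like gene Chi3l1 rose by 2.29 (adjusted p = 7.39e-11). Duox1, a hydrogen peroxide-making oxidase of epithelium, and its maturation factor gene Duoxa1 rose by 1.5 and 1.32. Lpo encodes lactoperoxidase, the airway enzyme that uses this peroxide. It was 6.00 to 7.87 (median 7.26) in the vehicle group against 10.05 to 12.53 (median 12.33) in DQ-12 rats, a log2 FC of 4.74 (SE 0.34, adjusted p = 7.66e-12). The mucin genes Muc5ac and Muc5b were not well above background in any rat of either group. Scgb1a1 did not pass (log2 FC -0.11, adjusted p = 0.636), and Cyp2f4, a cytochrome of club cells, was lower in all 6 DQ-12 rats (log2 FC -0.72, adjusted p = 0.00398). Retnla, a resistin-like protein of type 2 inflammation, was 7.59 to 10.92 (median 8.69) and 11.38 to 14.36 (median 12.47), a log2 FC of 3.91 (adjusted p = 4.68e-07), but was not a DEG with slide as a block. Ciliated cell genes gave 0 DEGs of 23 in limma, with 3 at an adjusted p under 0.05, 5 at an unadjusted p under 0.05, and a median of -0.15. Keratin and squamous genes gave 0 of 18, with 2 and 3 at these limits and a median of -0.13. By the adjusted p alone 7.94% of all genes tested were higher and 9.11% were lower. The share of all genes at an unadjusted p under 0.05 was not counted. List counts at that limit, here and below, therefore cannot be read as more or fewer than usual.

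Surfactant and alveolar type 2 genes held no DEG among 20 (1 without DQ-12 replicate 3), yet 8 were higher by the adjusted p alone, 1 was lower, 13 had an unadjusted p under 0.05 in limma, and the median log2 FC was 0.36. Muc1, a membrane mucin of these cells, was 12.13 to 12.61 (median 12.31) in the vehicle group against 12.69 to 13.80 (median 13.20) in DQ-12 rats, without overlap (log2 FC 0.94, adjusted p = 2.17e-05). Ctsh, a protease that matures surfactant protein B, had a log2 FC of 0.73 and Sftpd, the collectin surfactant protein D, 0.47 (adjusted p = 3.06e-05 and 0.00482). Sftpc was at the top of the scale (18.42 in most rats), where quantile normalization leaves no room for a rise, so that its log2 FC of -0.04 carries little information.

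Alveolar type 1 genes were shifted downward. None of 18 was a DEG, but none had a log2 FC above 0, against 46.1% of all genes, and 15 were lower by the adjusted p alone, against 9.11% of all genes. At an unadjusted p under 0.05 in limma all 18 were lower. The median log2 FC was -0.48, and the list mean was -0.69 to -0.39 in DQ-12 rats and -0.11 to 0.13 in vehicle rats, without overlap. Cav1, the coat protein of caveolae, which type 1 and endothelial cells share, was 15.48 to 15.80 (median 15.71) in the vehicle group against 14.36 to 15.13 (median 14.91) in DQ-12 rats (log2 FC -0.80, adjusted p = 2.17e-07). Rtkn2 was 8.70 to 9.37 and 7.97 to 8.39 (log2 FC -0.75, adjusted p = 9.53e-06), and Ager, the receptor that marks type 1 cells, 17.03 to 17.58 and 16.72 to 17.02 (log2 FC -0.42, adjusted p = 0.00684). These are shifts of less than 2-fold that all 6 DQ-12 rats shared.

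Endothelial genes were lower as well, with 18 of 26 lower by the adjusted p alone, 1 lower and 1 higher DEG (1 in all without vehicle replicate 3 or DQ-12 replicate 1, 2, 4, or 6), and a median log2 FC of -0.58. The list mean was -0.77 to -0.09 in DQ-12 rats and -0.06 to 0.05 in vehicle rats. Plvap, the diaphragm protein of fenestrae and caveolae, was 16.54 to 16.75 (median 16.60) in the vehicle group against 15.38 to 16.16 (median 15.93) in DQ-12 rats (log2 FC -0.74, adjusted p = 4.48e-05). Ednrb, an endothelin receptor of lung capillaries, was 13.61 to 13.94 (median 13.69) and 12.20 to 13.25 (median 12.59), and its log2 FC of -1.01 (adjusted p = 1.08e-05) fell just short of 2-fold without vehicle replicate 3 or 5 or DQ-12 replicate 1, 2, 4, or 6 (-0.91 to -0.99). Sele, the selectin that activated endothelium shows to leukocytes, was the only higher DEG. Its signal was 4.76 to 5.98 (median 5.56) and 6.02 to 8.71 (median 7.62), a log2 FC of 2.06 (adjusted p = 4.47e-05). By the adjusted p alone 2 of the 26 were higher, and 4 had a log2 FC above 0. Esm1, or endocan, a secreted product of endothelium outside the list, fell from 12.26 to 13.07 (median 12.76) to 10.71 to 12.07 (median 11.31), a log2 FC of -1.37 (adjusted p = 3.65e-05). Ednrb, Sele, and Esm1 were not DEGs with slide as a block, nor Ednrb with scan date as one. Thbd, the anticoagulant receptor thrombomodulin, was lower in all 6 DQ-12 rats (log2 FC -0.81, adjusted p = 4.11e-07).

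Matrix genes were not raised as a group. Of 39 matrix and myofibroblast genes, 2 were higher DEGs, none was lower, and the median log2 FC was -0.27, with 10 lower and 3 higher by the adjusted p alone. The fibrillar collagen genes Col1a1 and Col3a1 were 11.58 to 12.64 and 11.77 to 13.54 in vehicle rats and 11.89 to 12.39 and 12.76 to 13.20 in DQ-12 rats. Their log2 FCs were 0.08 (95% interval -0.31 to 0.46) and 0.20 (-0.22 to 0.63), so that neither a 2-fold rise nor a 2-fold fall of the group mean lies within these intervals. Postn, the matricellular protein periostin, was lower in all 6 DQ-12 rats at 8.60 to 9.43 against 9.84 to 10.73 (log2 FC -0.99, adjusted p = 1.63e-05). Thbs2, a thrombospondin that limits vessel growth, was 5.97 to 7.04 (median 6.75) in the vehicle group against 7.11 to 9.14 (median 8.28) in DQ-12 rats (log2 FC 1.59, adjusted p = 0.00015), and Fap, a protease of activated fibroblasts, was at least 2.03-fold higher, measured in 4 DQ-12 rats but not a DEG with normexp or slide as a block. Of 30 matrix proteases and inhibitors, 5 were higher DEGs and none was lower, with a median log2 FC of 0.04, or 0.0023 without vehicle replicate 5. By the adjusted p alone 9 were higher and 2 lower. The 5 were Mmp12, Mmp7, Ctsk, Mmp9, and Mmp14. The membrane protease gene Mmp14 was 10.77 to 11.03 (median 10.89) and 11.94 to 12.65 (median 12.17), a log2 FC of 1.35 (adjusted p = 1.08e-09). Mmp9, a gelatinase of neutrophils and macrophages, had a log2 FC of 2.00 (adjusted p = 0.00283) with 4 DQ-12 rats above the vehicle range, and it was not a DEG with normexp or with scan date or slide as a block. The inhibitor gene Timp1 had a log2 FC of 0.57 (adjusted p = 0.026).

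**Figure D3:**
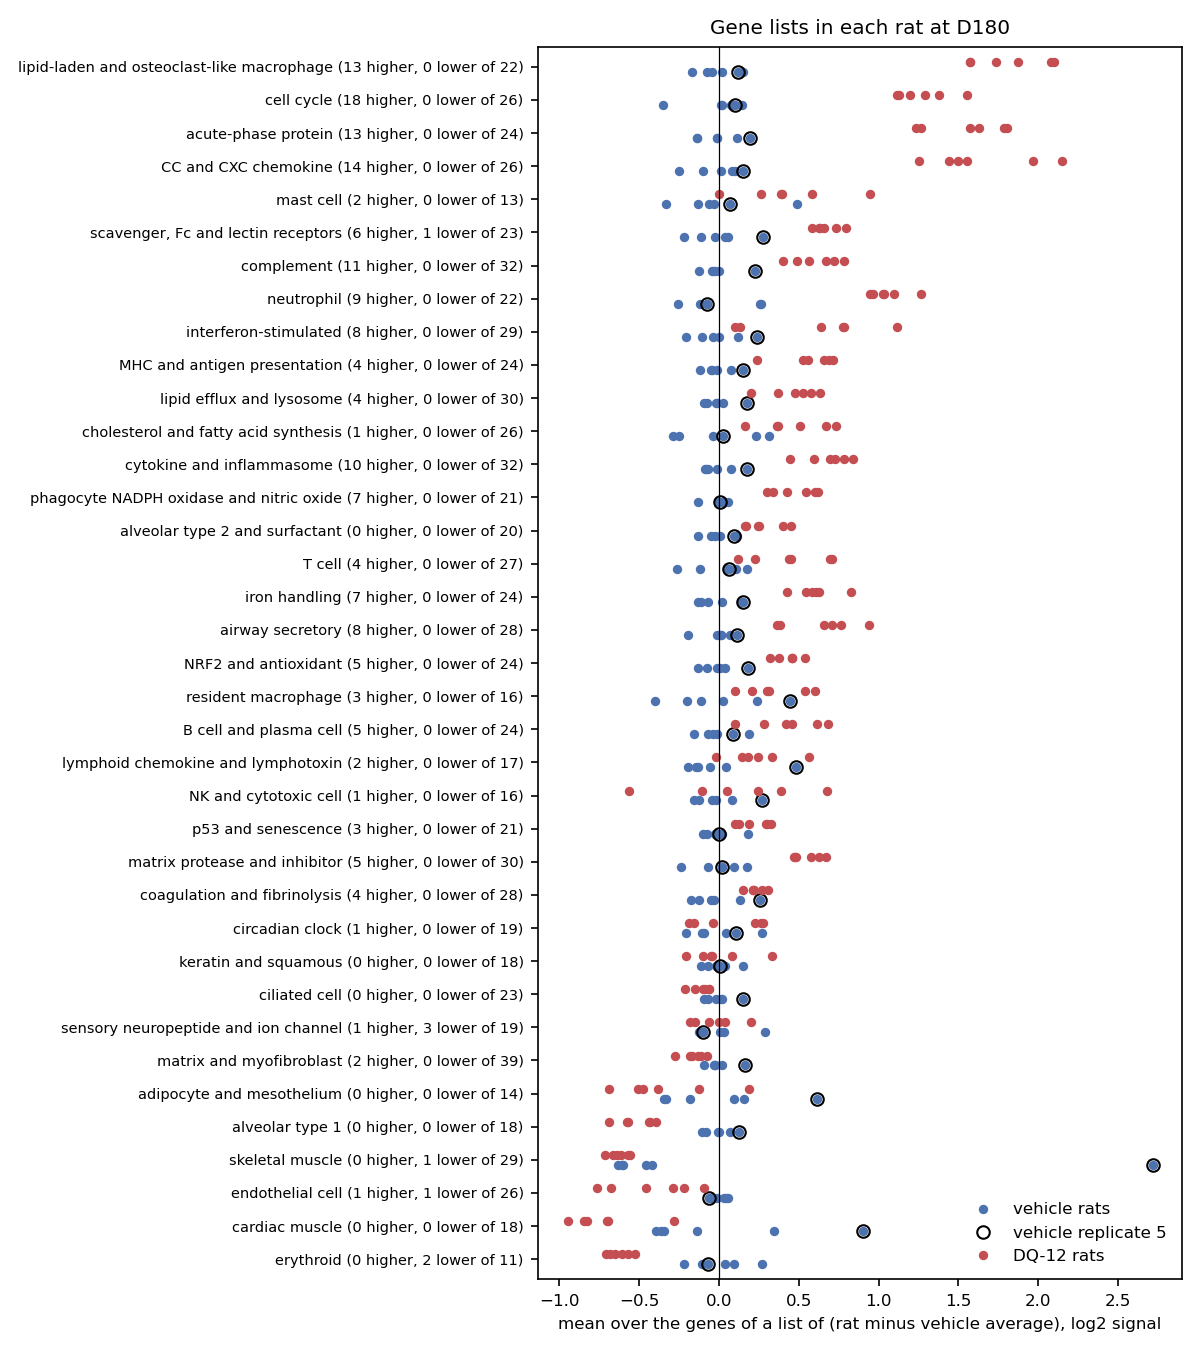
Mean over the genes of each list of a rat's log2 signal minus the vehicle average at D180, 1 point per rat, with lists ordered by median log2 fold change and the numbers of higher and lower DEGs in brackets. The lipid-laden and osteoclast-like macrophage, cell cycle, acute-phase, and chemokine lists are separated most, whereas the resident macrophage list overlaps. In the alveolar type 1, endothelial, and erythroid lists all DQ-12 rats lie below all vehicle rats. Vehicle replicate 5 (circled) stands at 2.72 for skeletal muscle.

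Of 19 sensory neuropeptide and ion channel genes, 3 were lower DEGs and 1, Scn10a, was higher, with a median log2 FC of -0.15. The list mean overlapped between the groups, at -0.12 to 0.29 in vehicle rats and -0.18 to 0.20 in DQ-12 rats. Tac1, the precursor gene of substance P, was 8.77 to 9.54 (median 9.39) in the vehicle group against 6.55 to 7.83 (median 7.64) in DQ-12 rats, without overlap (log2 FC -1.91, SE 0.22, adjusted p = 1.59e-07). Calca, the precursor of calcitonin and CGRP, was 6.77 to 7.18 (median 6.98) and 4.79 to 6.98 (median 6.08), a log2 FC of -1.04 (adjusted p = 0.0095), or -0.81 without DQ-12 replicate 3, which ends the call, as does leaving out vehicle replicate 3 (-0.999) or DQ-12 replicate 1 (-0.90). The third lower DEG was Ednrb, the endothelin receptor described above. Without vehicle replicate 5, 2 genes of the list were lower DEGs. Scn10a, Tac1, Calca, and Ednrb were not DEGs with slide as a block, nor Calca with normexp or Ednrb with scan date as a block.

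Other large falls came from genes of several functions. Serpinb10, a protease inhibitor of bone marrow cells, was 10.92 to 12.39 (median 11.24) in the vehicle group against 8.70 to 10.15 (median 9.97) in DQ-12 rats (log2 FC -1.74, adjusted p = 4.33e-05). Fbp1, an enzyme of gluconeogenesis, was 11.1 to 11.85 (median 11.39) and 8.99 to 10.62 (median 9.92), a log2 FC of -1.53 (adjusted p = 0.000135). Slc15a2, a peptide transporter of the airway and alveolar epithelium, was 10.69 to 11.09 (median 10.83) and 8.96 to 9.84 (median 9.73), a log2 FC of -1.32 (adjusted p = 2.53e-05). All 3 separated the groups. Fmo2, a flavin monooxygenase abundant in lung, Fn3k, which removes sugars from glycated proteins, the lipoxygenase gene Alox15, the glycosyltransferase gene Galnt14, Clstn2, and Sh3rf2 fell by 1.13 to 1.20 on the log2 scale. Ucp3 and Dhrs7c, known from muscle, fell by 1.25 and 1.22 in all 6 DQ-12 rats, and by 1.12 and 1.06 without vehicle replicate 5. Tspyl4 and Tmprss12 also fell (log2 FC -1.22 and -1.12) but missed the thresholds without vehicle replicate 5 (log2 FC -0.90 with adjusted p = 0.000629, and -1.02 with adjusted p = 0.0623). Sh3rf2 missed 2-fold without vehicle replicate 6 (-0.98). Nanog, a factor of pluripotent cells that was dim in these lungs, was at least 2.95-fold lower. None of the falls in this paragraph was a DEG with slide as a block, and with normexp Fn3k, Alox15, Galnt14, Sh3rf2, Ucp3, Dhrs7c, Tspyl4, Tmprss12, and Nanog were not. Galnt14, Sh3rf2, Tspyl4, and Tmprss12 were not DEGs with scan date as a block either.

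Erythroid genes were lower, with 2 DEGs of 11 and none higher, 9 of 11 lower by the adjusted p alone, and a median log2 FC of -0.69. Slc4a1, the red cell anion exchanger, was 7.22 to 8.37 (median 7.48) in the vehicle group against 6.16 to 6.99 (median 6.51) in DQ-12 rats (log2 FC -1.06, adjusted p = 0.0173). The hemoglobin gene Hba-a2 was 14.49 to 15.03 and 13.79 to 14.26, again without overlap (log2 FC -0.79, adjusted p = 0.00236). How much blood the lobes held was not measured. The 2 DEGs, Slc4a1 and Ahsp, both missed 2-fold without vehicle replicate 6 (log2 FC -0.91 and -0.93), and 1 of them without DQ-12 replicate 1, 3, or 6. Both were lost with scan date or slide as a block, and Slc4a1 with normexp. Circadian clock genes moved little (median -0.09). The only DEG of 19 was Bhlhe41, a repressor at 11.34 to 11.89 in vehicle rats and 12.81 to 13.85 in DQ-12 rats (log2 FC 1.57, adjusted p = 7.61e-09), which was not a DEG with slide as a block.

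Skeletal muscle genes marked a single library. In vehicle replicate 5 the mean of 29 such genes was 2.72 above the vehicle average, whereas the other 11 rats lay between -0.71 and -0.42, and this rat was the highest of the 12 in 27 genes. Myh1, a fast myosin heavy chain, was 11.1 in this rat and 2.21 to 4.79 in the other 11. Myh2 was 8.67 against 1.92 to 3.19, and the fast light chain gene Mylpf 11.57 against 5.21 to 6.02. Over the list, this rat exceeded the mean of the other vehicle rats by a median of 2.96, and by at least 2 in 19 genes. The one DEG of the list, the calcium channel gene Cacna1s, was lower in DQ-12 rats (log2 FC -1.56, adjusted p = 0.0346) and missed the threshold without this rat (log2 FC -1.24, adjusted p = 0.112), as it did without vehicle replicate 2 or DQ-12 replicate 3, 4, or 6, with normexp, or with scan date or slide as a block. Leaving the rat out moved the median log2 FC of the list from -0.53 to -0.11. It changed the number of DEGs little, from 871 to 873, of which 761 were in common, with 696 higher and 177 lower.

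**Figure D4:**
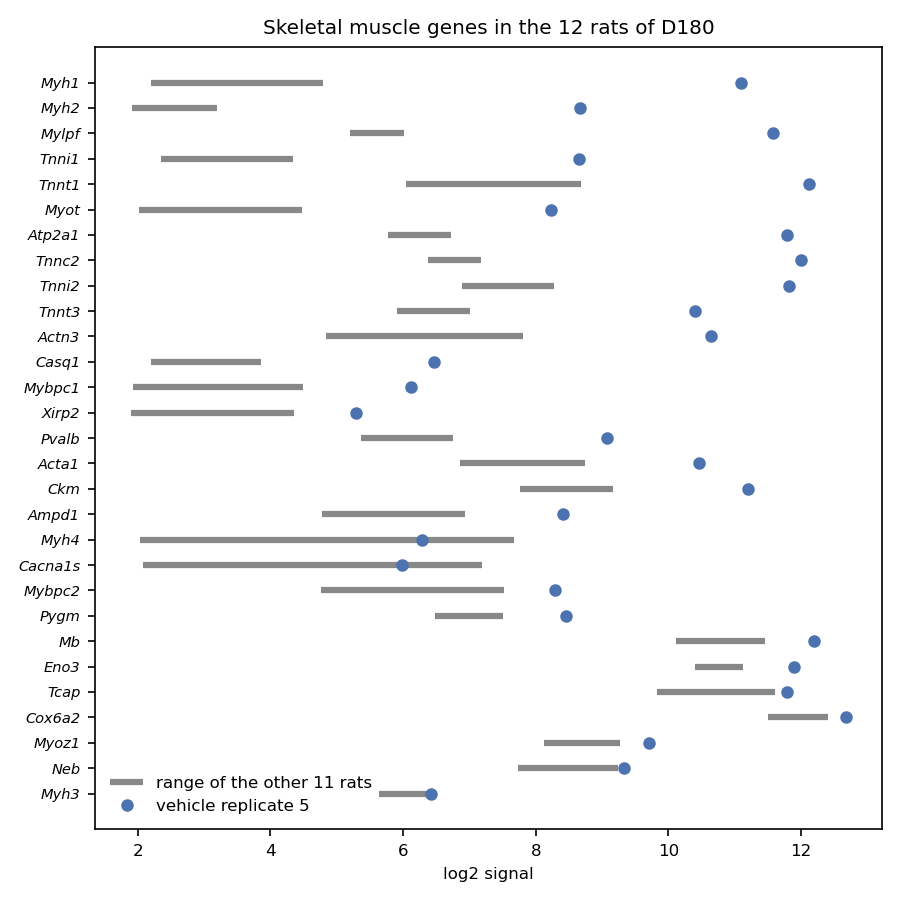
Log2 signal of 29 skeletal muscle genes at D180, with the range of 11 rats as a gray bar and vehicle replicate 5 as a blue point. The point lies to the right of the bar in 27 genes, by most for Myh1 (11.1 against at most 4.79).

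Cardiac muscle genes, which rats express in the walls of the pulmonary veins, were lower with and without that rat. None of 18 was a DEG (1 or 2 were without vehicle replicate 1, 3, or 4 or DQ-12 replicate 6), 7 were lower and none higher by the adjusted p alone, 13 had an unadjusted p under 0.05 in limma, and the median log2 FC was -0.61, or -0.56 without vehicle replicate 5. Myl7, the atrial myosin light chain, was 13.73 to 14.26 (median 13.95) in the vehicle group against 12.81 to 13.62 (median 12.96) in DQ-12 rats (log2 FC -0.92, adjusted p = 6.47e-05). Without vehicle replicate 5, Myl7 was at -0.86 (adjusted p = 0.000294), Csrp3, a muscle LIM protein, at -0.81 (adjusted p = 0.00315), and Tnni3, cardiac troponin I, at -0.66 (adjusted p = 0.0137). Vehicle replicate 5 also exceeded the other vehicle rats in Myl2, Myl1, and Myl3, which skeletal muscle shares, by 5.76, 5.37, and 4.72. Of 14 adipocyte and mesothelium genes none was a DEG in limma, and 4 had an unadjusted p under 0.05 (median -0.36). Among them, Upk3b, a mesothelial marker, was lower in all 6 DQ-12 rats (log2 FC -0.80, adjusted p = 0.000284).

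To show where D180 differed from the earlier days, the difference between the DQ-12 effects was tested in the same model. Every group held other rats. At D1 the DQ-12 arrays were all scanned on 1 date, which held only replicate 3 of the vehicle arrays. At D30 most vehicle and most DQ-12 arrays were likewise scanned on different dates. Differences between days thus cannot be fully told apart from those between scan dates. Between D180 and D30 the change differed for 33 genes (0.139% of those tested), 29 of which had changed more positively at D180 (0.122%). Lpo had a log2 FC of 0.20 at D1, 1.86 at D30, and 4.74 at D180, and the D180 change exceeded that at D30 by 2.88 (adjusted p = 0.00455). For Il1rn the 3 values were 0.98, 1.13, and 2.57 (difference 1.45, adjusted p = 0.00225), and for Pla2g7 0.94, 0.76, and 2.36 (difference 1.60, adjusted p = 0.00455). Each of these genes thus differed more from vehicle rats at D180 than at D30. The same direction was found for Orm1 (difference 4.16), Ubd (2.15), Mt3 (1.95), Ctsk (1.84), Ccl2 (1.75), and Chia (1.70), with adjusted p between 0.00561 and 0.0387. Fn3k, at -0.19, 0.06, and -1.19, went the other way (difference -1.25, adjusted p = 0.00854). Clec6a-ps1 and Olr490 also passed, with 1 and 0 of the 12 arrays at D180 well above background. The number of such genes was 21 without vehicle replicate 1 or DQ-12 replicate 4, 55 without vehicle replicate 4, 67 without DQ-12 replicate 3, 14 with scan date as a block, and 204 with slide as a block. With slide as a block the direction turned, since 66 of the 204 had changed more positively at D180, whereas all 14 had with scan date as one.

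Between D180 and D1 the change differed for 379 genes (1.60%), 280 of them more positive at D180 (1.18%), or for 106 genes with scan date as a block, of which 96 were more positive. With slide as a block 229 genes differed, and 99 of them were more positive at D180. The 5 lowest adjusted p were those of Lpo, of Ptcd3, a mitochondrial translation protein (log2 FC -0.15 at D1 and 1.04 at D180), Trem2 (0.71 and 3.58), Serping1 (0.02 and 1.13), and Rassf4 (-0.22 and 1.40). At D180 neither Ptcd3 nor Rassf4 was a DEG with slide as a block, nor Ptcd3 with normexp or scan date as a block. Lists can be set side by side over the days without a test of their own. Cell cycle genes had a median log2 FC of 1.96, 0.64, and 1.35 and 22, 7, and 18 higher DEGs of 26 at D1, D30, and D180. Interferon-stimulated genes had medians of 0.07, 0.23, and 0.585 and 1, 0, and 8 higher DEGs of 29. Complement genes had 3, 3, and 11 higher DEGs of 32, and lipid-laden and osteoclast-like macrophage genes 4, 11, and 13 of 22. Over all genes there were 485, 219, and 686 higher DEGs.

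**Figure D5:**
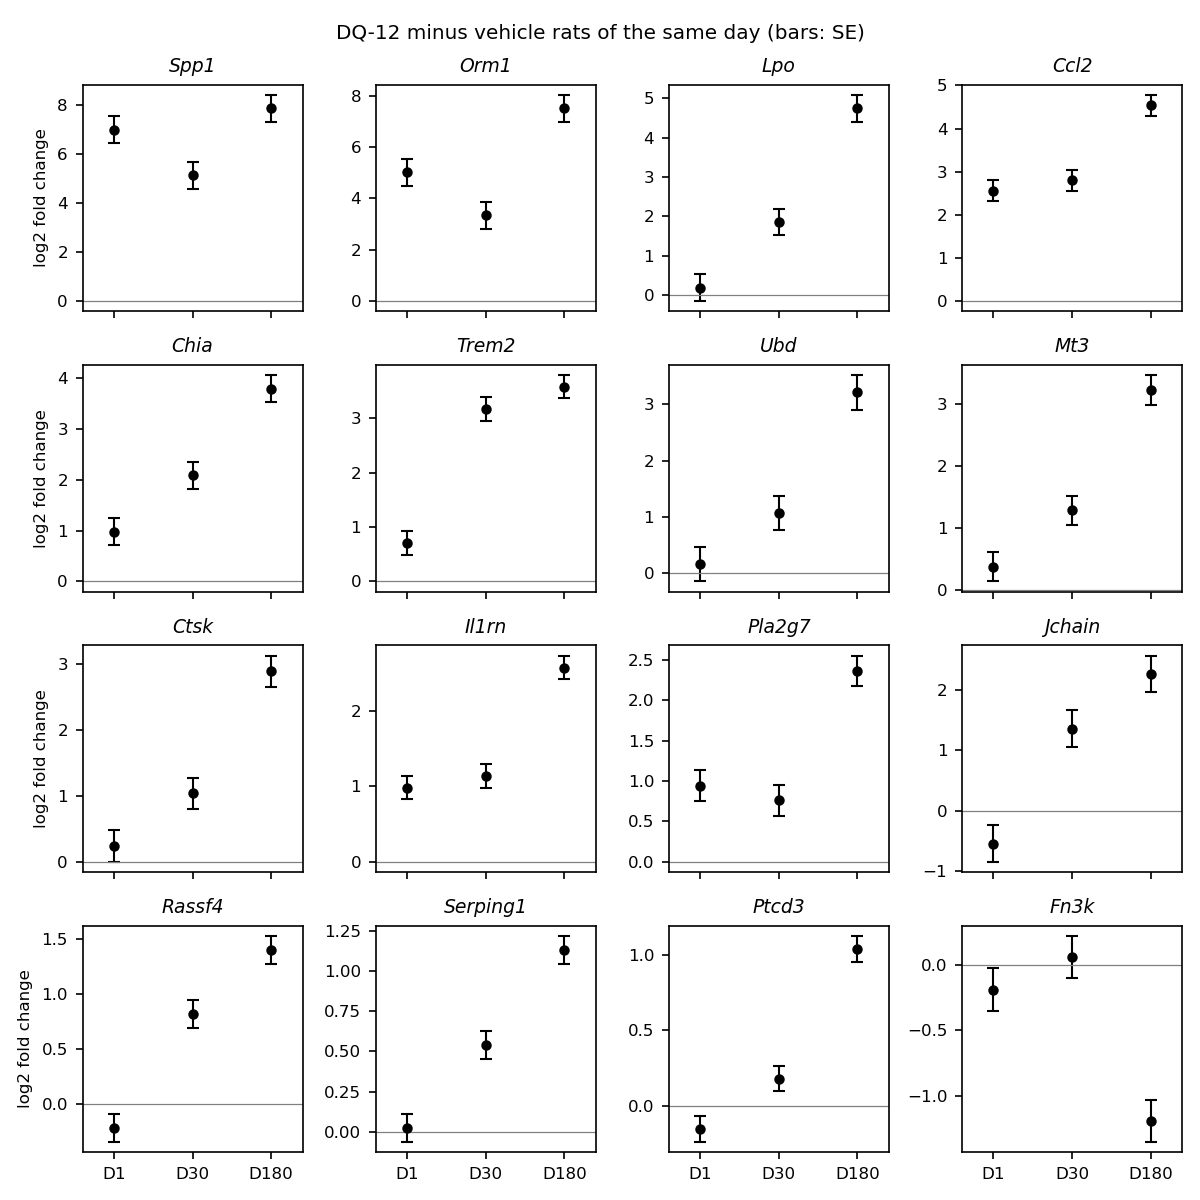
Log2 fold change of DQ-12 over vehicle rats at D1, D30, and D180 for 16 genes, with bars for the SE of the limma model and other rats on each day. Lpo, Ubd, Mt3, and Ctsk are below 2 until D30 and lie between 2.88 and 4.74 at D180, and Fn3k is below 0 by more than 1 only at D180.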

How the data were processed

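Total RNA from the accessory lobe of 36 female rats was hybridized by the authors to Agilent single-color 8x60K rat arrays, 1 rat per array. Per the labels, spots were read with Agilent Feature Extraction 12.0.1.1. The deposited intensity of a spot is the background-subtracted processed signal of the scanner software. The deposited log2 values of the same arrays, scaled by the authors to the 75th percentile of each array, were used as an alternative. The depth of an array is not a read count, and the number of arrays limits the precision.

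Control spots and spots with outlier marks were left out, and signals were transformed to log2 and averaged over the spots of a probe. Dim probes, those that passed the 95th percentile of 308 negative control spots on fewer than 6 arrays, were removed. The remaining probes were quantile-normalized. Probes whose gene name only repeated their systematic name were then dropped. The probe with the highest mean stood for a gene, which left 23721 genes. One limma 3.58.1 model (R 4.3.3) with 6 group means and all 36 arrays gave the differences, with Benjamini–Hochberg adjustment within each contrast. DEGs were defined by a 2-fold change together with an adjusted p under 0.05. On simulated data with 23721 genes, the adjusted p recovered 30%, 72%, 66%, and 90% of genes changed 1.5-fold, 2-fold, 3-fold, and 4-fold at D180. Of the genes left unchanged there, 6 had an adjusted p under 0.05. In simulated data without any added change, 0 genes were DEGs. The simulated noise was independent between arrays and held no slide or scan date effect.

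Genes were named by rule: the 15 largest rises and falls among DEGs without overlap between groups that were well above background on at least 4 arrays of each group, the 5 largest bounds in each direction, the 4 leading DEGs of each of 37 lists (or its member with the lowest p), and the 5 lowest adjusted p of each difference between days. Some genes of the lists are counted but not reported here by name. Other list members were chosen after their values were seen. The gene lists, and the choice of D180 itself, were made with earlier results of these data known. Genes carry the symbols of the array's design, and signal from near-identical gene copies was not separated. Replicate numbers did not pair the rats: same-numbered rats correlated at -0.117 to 0.217. Alternatives covered background correction, scaling, filters, probe summary, the 12 arrays of D180 alone, scan date and slide as blocks, array weights, thresholds, and leaving out each rat.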

Additional observations from a re-analysis of the deposited data

Results flagged for a closer look

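In 15 of 258 groups of 6 rats, over 129 named genes, the highest or lowest rat stood apart, with a gap to its nearest neighbor, as a share of the range of its group, beyond Dixon's 95% limit. Chance alone gives about 1 in 20 such groups, and 14 of the 15 are reported here. In vehicle rats, the gap over the range was 0.716 for Lcn2 in replicate 2 (12.26, next 8.539), 0.856 for Cd5l in replicate 5 (6.868, next 3.296), 0.681 for Serping1 and 0.64 for Npc2 in replicate 2, both high, 0.685 for Atp6v1b2 in replicate 6 and 0.699 for Tac1 in replicate 4, both low. In DQ-12 rats it was 0.883 for Foxp3 in replicate 1 (9.752, next 6.068), 0.671 for Cpb2 in replicate 5 (8.204, next 5.815), and 0.695 for Myl7 in replicate 6, all high. It was 0.845 for Tpsab1 in replicate 3 (8.176, next 10.03), 0.747 for Il12b (5.457, next 6.209), 0.772 for Ccl19 (10.3, next 11.67), and 0.888 for Cst7 (8.186, next 8.589) in replicate 5, and 0.687 for Serpinb10 in replicate 2, all low. Leaving out the rat concerned ended no call among the DEGs listed here.

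The DQ-12 effect at D180 differed from that at D30 for 12 of the 129 named genes, tested as a difference of log2 FC in limma. The difference was 4.16 for Orm1, 2.88 for Lpo, 2.15 for Ubd, 2.12 for Clec6a-ps1, 1.95 for Mt3, 1.84 for Ctsk, 1.75 for Ccl2, 1.70 for Chia, 1.60 for Pla2g7, 1.45 for Il1rn, 1.21 for Olr490, and -1.25 for Fn3k. At D180, Olr490 was well above background on 0 of 12 arrays and Clec6a-ps1 on 1. Against D1, 39 of the 129 differed. For the genes named because of a difference between days, the differences against D1 that passed were those of Lpo (4.54), Trem2 (2.87), Clec6a-ps1 (2.10), Rassf4 (1.61), Il1rn (1.59), Pla2g7 (1.42), Ptcd3 (1.19), and Serping1 (1.11).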

How the results depend on the processing

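Against 871 DEGs at D180, of which 686 were higher and 185 lower, normexp background correction gave 327 (309 and 18), slide as a fixed block 466 (251 and 215), a limma test against a 2-fold change 134 (133 and 1), and an FC threshold of 1.5 gave 2316 (1278 and 1038). The lower DEGs were 113 with the 12 arrays of D180 alone. The share of higher DEGs was 78.8%, 94.5% with normexp, and 53.9% with slide as a block. The difference between D180 and D30 (33 genes) gave 14 with scan date and 204 with slide as a fixed block (66 more positive at D180, against 29 of 33), 229 with array weights, and 21 to 67 when 1 rat was left out. The difference between D180 and D1 (379 genes) gave 190 with normexp, 106 with scan date as a fixed block, 229 with slide as a fixed block (99 more positive, against 280 of 379), and 245 with scan date as a random block. Other counts stayed within 1.5 times, and leaving out 1 rat gave 775 to 1031 DEGs. With replicate number as a block there were 666 DEGs (567 and 99), 647 of them in common with the 871. Same-numbered rats correlated at -0.117 to 0.217, and 3 of 6 correlated best with their own number, so that the numbers were not used to pair rats.

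Of the values of named genes under the alternatives, 3027 kept direction and side of the threshold, 313 lost the threshold, 2 gained it, and 2 reversed. The Olr490 log2 fold change at D180, a gene that no array of that day measured above background, was -3.257e-06 to 0.03981 when 1 rat was left out, the lowest without DQ-12 replicate 5. The Cacna1s log2 fold change at D180 was 0.56 with slide as a block. The causes were not tested. Signal over background limits 68 higher DEGs, which no vehicle array measured, and 48 lower DEGs, which no DQ-12 array measured. Of the 68, 11 were well above background on all 6 DQ-12 arrays.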
